A study of Mus musculus with 8 samples.

Results

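The WNK kinase pathway and the channels that move chloride and osmolytes during cell volume change were examined in mouse inner medullary collecting duct cells exposed to added salt, in a study of their transcriptional response to hypertonicity. The genes were chosen by symbol, as the rows of the raw count table named Wnk1, Stk39, Oxsr1, Slc12a2, Lrrc8a, Lrrc8b, Lrrc8c, Lrrc8d and Clcn3. All 9 were found among 15288 genes, and all 9 passed the filter on low counts. The IMCD line, labelled as kidney duct cells, was held for 12 h in DMEM free of FBS, either without addition (control, n = 4 libraries, numbered 1 to 4) or with 100 mmol NaCl (n = 4 libraries, numbered 5 to 8). The labels give this amount with no volume. Both groups had been grown in high-glucose DMEM with serum and antibiotics. The labels do not say whether the 4 libraries of a group came from separate cultures, so p-values measure the spread between these libraries, which may be technical.

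When a cell shrinks in hypertonic fluid, WNK kinases activate the kinases SPAK (encoded by Stk39) and OSR1 (Oxsr1). These phosphorylate cation-chloride carriers, which turns on the sodium-potassium-chloride carrier NKCC1 (Slc12a2) and lets the cell take up ions and water. Swelling instead opens the volume-regulated anion channel, a hexamer of LRRC8 proteins that releases chloride and organic osmolytes. LRRC8A is its required subunit, and LRRC8B, LRRC8C, LRRC8D and LRRC8E set which solutes pass. Much of this pathway is controlled by phosphorylation, which transcript counts do not measure.

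Libraries held between 35.29 and 47.57 M counts, and the 9 genes had between 780 and 13787 counts in any library. Levels are given as CPM, the counts of a library scaled to a common total after TMM normalization. Of 14 collecting duct and renal epithelial markers, 9 had a mean of at least 1 CPM, among them Krt18 (187 to 245 CPM in control and 192 to 233 CPM in NaCl libraries) and Pax8 (147 to 171 and 219 to 242 CPM). The list summed to 687 to 878 CPM in control and 903 to 1030 CPM in NaCl libraries. Of its genes, Pax2 rose by 1.23, Slc14a2 by 1.13 and Pax8 by 0.54 on the log2 scale (adjusted p = 1.571e-10, 1.02e-04 and 1.452e-06). From levels near 0, Avpr2 (at most 0.266 CPM in control and 1.16 CPM in NaCl libraries) rose by 2.60 and Cdh1 (at most 0.332 and 0.709 CPM) by 1.43 on the log2 scale (adjusted p = 0.00685 and 0.0254). The vasopressin-regulated water channel gene Aqp2 was at most 0.364 CPM and the epithelial cadherin gene Cdh1 at most 0.709 CPM in every library, so 2 defining markers of the labelled cell type were near 0. Of the same list, Aqp3 (at most 0.662 CPM) and Aqp4 (at most 0.5 CPM) were near 0 too. The proximal tubule marker Lrp2 was at 160 to 203 CPM in control and 152 to 174 CPM in NaCl libraries. Of the same tubule, Cubn was at most 2.93 CPM and Slc5a2 at most 0.26 CPM. The 4 fibroblast markers summed to 3110 to 3610 CPM in control and 2800 to 3240 CPM in NaCl libraries, led by Col1a1. Its members did not move one way, since Col1a1 fell by 0.21 on the log2 scale (adjusted p = 0.00808) and Pdgfrb rose by 0.70 (adjusted p = 1.083e-06). Of 3 leukocyte markers, 2 had a row, and these summed to 5.95 to 7.19 CPM in control and 14.9 to 15.3 CPM in NaCl libraries, mostly from Ptprc (3.62 to 4.47 and 13.0 to 14.0 CPM). The other, Cd68, was at 1.93 to 2.72 and 1.31 to 2.03 CPM (log2 fold change -0.51, adjusted p = 0.0573). The part of these marker levels in the results that follow was not tested.

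With NaCl, transcripts of the carrier gene Slc12a2 and of the channel subunit genes Lrrc8b and Lrrc8c fell, and those of the kinase gene Stk39 rose modestly. Lrrc8c fell 1.44-fold, Lrrc8b 1.39-fold and Slc12a2 1.24-fold, while Stk39 rose 1.16-fold. For Wnk1, Oxsr1, Lrrc8a, Lrrc8d and Clcn3 the difference did not pass the threshold of an adjusted p-value of 0.05. The quasi-likelihood test of edgeR with Benjamini-Hochberg adjustment over all genes called 4 of 9 genes, where it called 34.1% of the 14024 genes tested. Of the 9 genes 1 was called higher and 3 lower, beside 16.9% and 17.2% of all genes. The 4 control and 4 NaCl libraries did not overlap for 6 of the 9 genes, beside 33.4% of all genes. No change among the 9 genes reached 1.5-fold, whereas 7.02% of all genes were called with at least that fold. A share of 4 in 9 is near the background and is not a result about these genes as a group. The median log2 fold change of the 9 genes was 0.04 and the median absolute value 0.12, beside 0.0029 and 0.14 over all genes tested. In bulk RNA, a lower level in every cell and a lower share of the cells that express a gene cannot be told apart.

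**Figure D1:**
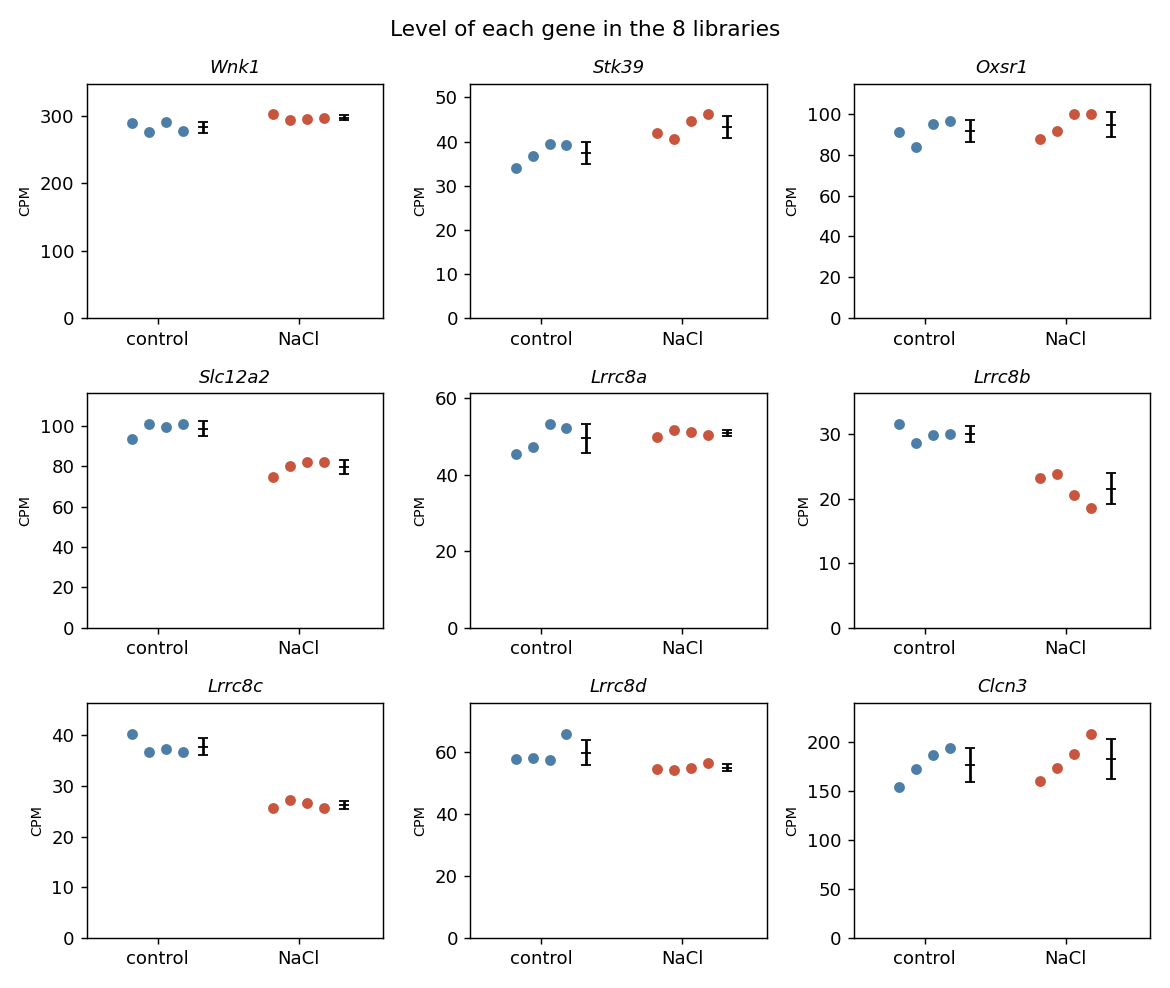
Level of each gene in CPM (vertical axis, from 0) in the 4 control and 4 NaCl libraries. Points are libraries, and the bars at the right of each group are the mean and SD. The groups stand clear of each other for Slc12a2, Lrrc8b and Lrrc8c, and overlap for Oxsr1, Lrrc8a and Clcn3.

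**Figure D2:**
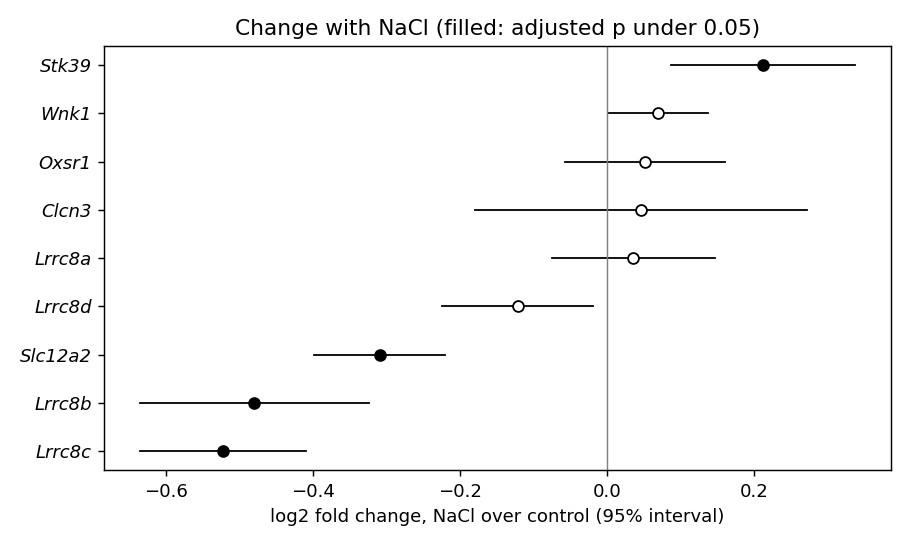
Log2 fold change of NaCl over control for the 9 genes (horizontal axis), with 95% intervals from the edgeR fit. Filled points had an adjusted p-value under 0.05, namely Stk39 at 0.21, Slc12a2 at -0.31, Lrrc8b at -0.48 and Lrrc8c at -0.52.

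The kinases were described first, beginning with Wnk1, the kinase at the head of the pathway (ENSMUSG00000045962, chromosome 6, 119923969 to 120038672, minus strand, GRCm38). Wnk1 had 289, 275, 291 and 277 CPM in the control libraries and 302, 294, 295 and 296 CPM in the NaCl libraries. Each NaCl library was above each control library, by a small margin. The means were 283 ± 8.10 and 297 ± 3.66 CPM (SD, n = 4 each), with a log2 fold change of 0.07 (SE 0.032, 95% interval 0.0016 to 0.14) and an edgeR adjusted p-value of 0.107. It was called with the library number centred within groups (adjusted p = 0.0382). The gene has 26 annotated transcripts and is known to make a kidney form that lacks most of the kinase domain. Counts per gene do not separate such forms, so a shift between them was not measured.

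Stk39 encodes SPAK, one of the paired kinases that WNK1 activates (ENSMUSG00000027030, chromosome 2, 68210445 to 68472268, minus strand). It had 34.0, 36.8, 39.5 and 39.3 CPM in control and 41.9, 40.5, 44.6 and 46.2 CPM in NaCl libraries. The lowest NaCl library was just above the highest control library. Its mean rose from 37.4 ± 2.59 CPM in control to 43.3 ± 2.57 CPM with NaCl (SD, n = 4 per group). On the log2 scale the change was 0.21 ± 0.059 (SE), with a 95% interval of 0.087 to 0.34 and an edgeR adjusted p-value of 0.0104. With the library number of the labels (1 to 8) entered as a linear drift the change was -0.048 (adjusted p = 0.781), so this call did not survive that fit. When the number was instead centred inside each group, the change was 0.21 (adjusted p = 3.076e-04). That fit takes out a shared trend within groups and leaves the difference between them, so it cannot separate a drift from NaCl. It also lines up the libraries of both groups by position, a match that the labels do not state.

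Oxsr1 encodes OSR1, the partner of SPAK with overlapping substrates (ENSMUSG00000036737, chromosome 9, 119238432 to 119322427, minus strand). Its levels were 91.1, 84.1, 95.1 and 96.6 CPM in control and 87.8, 92.0, 99.9 and 100.0 CPM in NaCl libraries, and the groups overlapped. The log2 fold change was 0.05 (SE 0.051, 95% interval -0.058 to 0.16, adjusted p = 0.482). This interval overlaps that of Stk39, and the difference between the changes of these genes was not tested. Per length, Stk39 transcripts stood to Oxsr1 transcripts as 0.403, 0.472, 0.448 and 0.440 to 1 in the control libraries and as 0.516, 0.475, 0.482 and 0.498 to 1 in the NaCl libraries. This ratio, which does not depend on the scaling between libraries, was 0.441 ± 0.0289 in control and 0.492 ± 0.018 with NaCl (SD, n = 4 each), and the groups did not overlap.

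The windows of 250 bases before the RefSeq start (GRCm38.p6) were searched on both strands for TGGAAA, the core of the tonicity-responsive enhancer (TonE) bound by the tonicity-responsive factor NFAT5. A window was given for 8 of the 9 genes, 10 windows in all. A match was found in 1 of 10 windows, that of Stk39, beside 18.6% of 32851 windows of the same length over all genes. The same position met the full TonE consensus, as did 4.31% of all windows. The stretch of 30 bases around it is shown because it holds the single match among these genes, with the match in capitals. It lies at chr2:68472189-68472218 on the minus strand.
Stk39: tcccagcgcgTGGAAActtccctggcggcg
The match begins 227 bases before the RefSeq start. The GENCODE start of Stk39 lies further out, so this window falls inside the annotated gene. A match of letters is not evidence of binding, and its absence in the other windows says nothing about the factor.

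Slc12a2 encodes NKCC1, the carrier that SPAK and OSR1 switch on for volume increase (ENSMUSG00000024597, chromosome 18, 57878678 to 57946821, plus strand). It had 93.4, 101, 99.5 and 101 CPM in control and 74.6, 80.1, 82.1 and 82.3 CPM in NaCl libraries. All NaCl libraries were below all control libraries. Its mean fell from 98.9 ± 3.81 CPM in control to 79.8 ± 3.57 CPM with NaCl (SD, n = 4 per group). On the log2 scale the change was -0.31 ± 0.042 (SE), with a 95% interval of -0.40 to -0.22 and an edgeR adjusted p-value of 2.717e-05. With the linear drift in the fit the change was -0.47 (adjusted p = 4.673e-06), and over every alternative tried the adjusted p-value was at most 2.258e-04.

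The channel genes were considered next. Lrrc8a, the required subunit, lies on chromosome 2 (ENSMUSG00000007476, 30237715 to 30263790, plus strand). It had 45.4, 47.3, 53.2 and 52.1 CPM in control and 49.9, 51.6, 51.2 and 50.3 CPM in NaCl libraries. The NaCl libraries all fell inside the control range. The log2 fold change was 0.04 (SE 0.052, 95% interval -0.075 to 0.15, adjusted p = 0.647), which leaves out a fall as large as that of Lrrc8b or Lrrc8c. Over 66.2% of its exon bases Lrrc8a overlaps the annotated gene Gm28035 on the same strand, and how the authors' counting treated such reads is not given in the sources used here.

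Lrrc8b, Lrrc8c and Lrrc8d are neighbours on the plus strand of chromosome 5, within 416.7 kb that hold no other protein-coding gene in GENCODE M21. Lrrc8b (ENSMUSG00000070639, 105415775 to 105490074) ends 29.3 kb before Lrrc8c (ENSMUSG00000054720, 105519388 to 105613018) begins. Lrrc8d (ENSMUSG00000046079, 105699969 to 105832436) begins 87.0 kb further on.

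Lrrc8b had 31.6, 28.7, 29.9 and 30.0 CPM in control and 23.2, 23.8, 20.6 and 18.6 CPM in NaCl libraries. No NaCl library reached the control range. Its mean fell from 30.0 ± 1.20 CPM in control to 21.6 ± 2.44 CPM with NaCl (SD, n = 4 per group). On the log2 scale the change was -0.48 ± 0.074 (SE), with a 95% interval of -0.64 to -0.32 and an edgeR adjusted p-value of 8.859e-05. With the linear drift in the fit it was -0.23 (adjusted p = 0.196), and the call was lost. With the library number centred within groups, a fit that cannot take up a drift between groups, it was -0.48 (adjusted p = 3.777e-08).

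Lrrc8c, whose protein forms channels with LRRC8A in many cell types, had the largest estimated change of the 9 genes in the fit of all libraries by group, close to that of Lrrc8b. Without NaCl replicate 5 Lrrc8b was at -0.52 and Lrrc8c at -0.51, and under the linear drift Slc12a2 was at -0.47, so the order was not stable. Lrrc8c had 40.3, 36.8, 37.3 and 36.7 CPM in control and 25.6, 27.2, 26.7 and 25.7 CPM in NaCl libraries, groups that stood well apart. Its mean fell from 37.8 ± 1.72 CPM in control to 26.3 ± 0.812 CPM with NaCl (SD, n = 4 per group). On the log2 scale the change was -0.52 ± 0.053 (SE), with a 95% interval of -0.64 to -0.41 and an edgeR adjusted p-value of 1.115e-06. Under the linear drift it was -0.43 (adjusted p = 0.00236).

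Lrrc8d, whose protein favours the passage of uncharged osmolytes such as taurine and myo-inositol, had 57.7, 57.9, 57.5 and 65.8 CPM in control and 54.3, 54.0, 54.8 and 56.5 CPM in NaCl libraries. Each NaCl library was below each control library, but the gap was small. The means were 59.7 ± 4.03 and 54.9 ± 1.09 CPM (SD, n = 4 each), with a log2 fold change of -0.12 (SE 0.049, 95% interval -0.22 to -0.019) and an adjusted p-value of 0.063. The call was gained without control replicate 1 (adjusted p = 0.0469), with the library number centred within groups (0.0169) and with the linear drift in the fit (log2 fold change -0.27, adjusted p = 0.0151). Without control replicate 4, which had 65.8 CPM, the change was smaller, at -0.07 (adjusted p = 0.219). The interval of Lrrc8d did not reach that of Lrrc8c or Lrrc8b, but the difference between genes was not tested.

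Lrrc8e, the remaining family member, was not among the 9 genes and had the lowest mean level of the family per length. It had 16.3, 16.1, 15.7 and 14.4 CPM in control and 11.6, 12.7, 11.6 and 13.2 CPM in NaCl libraries, and the groups did not overlap. It fell by 0.35 on the log2 scale (SE 0.077, adjusted p = 0.00206), and with the linear drift in the fit the change was -0.31 but no longer called (adjusted p = 0.169).

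The bases before the starts of Lrrc8b and Lrrc8c are shown because both neighbours fell. They end just before the first annotated start, at chr5:105415525-105415774 and chr5:105519221-105519387 on the plus strand, and carry no capitals because neither window held TGGAAA.
Lrrc8b: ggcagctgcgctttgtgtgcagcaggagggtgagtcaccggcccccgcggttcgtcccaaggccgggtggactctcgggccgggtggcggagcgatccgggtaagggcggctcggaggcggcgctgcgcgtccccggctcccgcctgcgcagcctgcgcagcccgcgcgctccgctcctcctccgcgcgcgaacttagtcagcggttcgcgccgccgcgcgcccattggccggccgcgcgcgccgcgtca
Lrrc8c: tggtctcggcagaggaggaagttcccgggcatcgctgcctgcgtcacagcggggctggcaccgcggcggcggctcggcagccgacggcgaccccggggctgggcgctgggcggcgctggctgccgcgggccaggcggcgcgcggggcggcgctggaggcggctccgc
Over the full 250 bases, GC content was 77.2% for Lrrc8b, 78.4% for Lrrc8c and 73.2% for the outer start of Lrrc8d, beside a median of 52.4% over all windows. The window of Stk39, which rose, had 82.4%, and those of Wnk1, Oxsr1, Lrrc8a and the outer start of Clcn3 had 62.4 to 68.4%. The inner starts of Lrrc8d and Clcn3 had 73.6 and 39.2%, the latter below the median. Outside that Clcn3 window, a high GC content was common to genes that fell, rose and were not called.

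The coding sequences of the 5 Lrrc8 genes are related but distinct. Aligned coding bases were identical over 67.6% between Lrrc8a and Lrrc8b, 66.1% between Lrrc8a and Lrrc8c, and 62.9% between Lrrc8b and Lrrc8c. No alignment of at least 75 bases at 98% identity joined Lrrc8b or Lrrc8c to another gene. Stk39 and Oxsr1 shared 73.4% of aligned coding bases and likewise had no such alignment.

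Because the subunits assemble with LRRC8A, the make-up of Lrrc8 transcripts was compared within each library, as the share of each gene in the summed CPM per kb of merged exons. Lrrc8a took 36.3, 38.5, 41.1 and 40.2% of the family in control and 45.4, 45.3, 46.5 and 45.8% in NaCl libraries, so every NaCl library was above every control library. The mean share was 39.0 ± 2.13% in control and 45.7 ± 0.535% with NaCl (SD, n = 4 each). Lrrc8c went from 16.8 ± 0.970 to 13.3 ± 0.246% and Lrrc8b from 15.2 ± 0.664 to 12.4 ± 1.29%, both without overlap between the groups. The shares of Lrrc8d (16.1 ± 0.922 and 17.0 ± 0.563%) and Lrrc8e (12.9 ± 0.972 and 11.5 ± 0.740%) overlapped. Lrrc8b and Lrrc8c together stood to Lrrc8a as 0.822 ± 0.0876 in control and 0.564 ± 0.0325 with NaCl. These shares are a description of the same counts, with no test of their own. With the longest transcript as the length, the Lrrc8a share was 32.1% in control and 37.4% with NaCl, and that of Lrrc8d 29.0 and 30.4%.

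**Figure D3:**
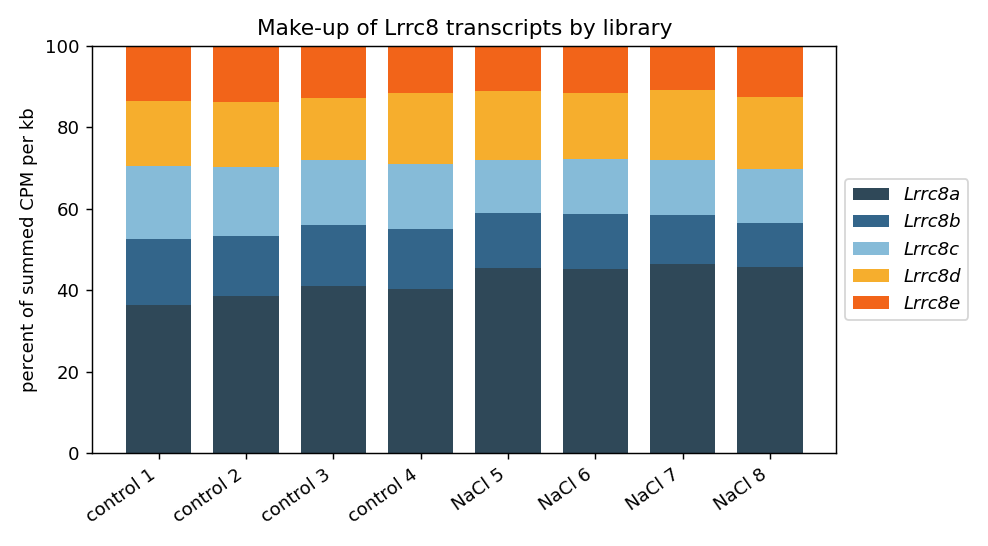
Share of each Lrrc8 gene in the summed CPM per kb of the family (vertical axis, percent) in each of the 8 libraries (horizontal axis). The Lrrc8a share is 36.3 to 41.1% in control and 45.3 to 46.5% in NaCl libraries, and the Lrrc8b and Lrrc8c shares are smaller with NaCl.

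Clcn3 encodes ClC-3, a chloride-proton exchanger of endosomes that was once proposed as a volume-regulated channel (ENSMUSG00000004319, chromosome 8, 60910389 to 60983300, minus strand). It had 154, 172, 186 and 194 CPM in control and 160, 173, 187 and 208 CPM in NaCl libraries. The groups overlapped almost completely, and the estimated change of Clcn3 had the largest standard error of the 9 genes. The log2 fold change was 0.05 (SE 0.098, 95% interval -0.18 to 0.27, adjusted p = 0.763). With the library number as a linear drift from 1 to 8 it was -0.43 (adjusted p = 7.078e-07), which reversed the direction and gave a call. With the number centred within groups, which leaves a drift between the groups in place, it was 0.04 (adjusted p = 0.23), with no call. Whether the library number marks an order of handling is not given in the sources used here, and it runs parallel to the groups, so a drift and an effect of NaCl cannot be fully told apart.

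Levels of different genes were compared per length only, as CPM per kb of merged exons. In the control libraries the order was Oxsr1 (17.1 ± 1.04), Wnk1 (12.4 ± 0.355), Lrrc8a (11.5 ± 0.866), Clcn3 (10.3 ± 1.03), Slc12a2 (9.06 ± 0.349), Stk39 (7.55 ± 0.522), Lrrc8c (4.93 ± 0.225), Lrrc8d (4.75 ± 0.320) and Lrrc8b (4.47 ± 0.178; CPM per kb, SD, n = 4 each). Oxsr1 stood clear of Wnk1, Slc12a2 of Stk39, and Stk39 of Lrrc8c. The other neighbours in this order overlapped. With NaCl, Stk39 was 8.74 ± 0.520 and Slc12a2 7.30 ± 0.327 CPM per kb, the opposite order and again without overlap. This exchange rests on the length used, since both genes were at 12.2 CPM per kb in the NaCl libraries with the longest transcript. With that length Wnk1 led in control (25.0 CPM per kb), followed by Clcn3 (21.5), and Lrrc8d (10.4) was above Lrrc8c (5.41).

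Likeness of pattern was described by Pearson's r of log2 CPM over the 8 libraries, among 10111 genes. The genes most like Lrrc8c were Tubb5 (r = 0.996), Marcks (0.996) and Bin1 (0.994), and of the other 8 genes Lrrc8b came closest (0.932). Among those most like Lrrc8a were Mgat2 (0.921) and Pnpla8 (0.914). All such values share the libraries, their depth and the difference between the groups.

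A list of 51 other genes of WNK signalling, cation-chloride and exchange carriers, CLC proteins and volume-sensitive or anion channels was then examined. Of these, 40 were tested, 4 had a row but were under the filter and 7 were not analysed here. In the list 18 of 40 genes were called, of which 11 rose and 7 fell. That is 45.0%, beside the 34.1% of all genes given above, and the median change over the list was 0.02 on the log2 scale. The parts of the list described below hold 3 to 12 tested genes each. Their shares of called genes are not results about these parts. Bsnd, which encodes an accessory subunit of chloride channels, rose several-fold from a low level.

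**Figure D4:**
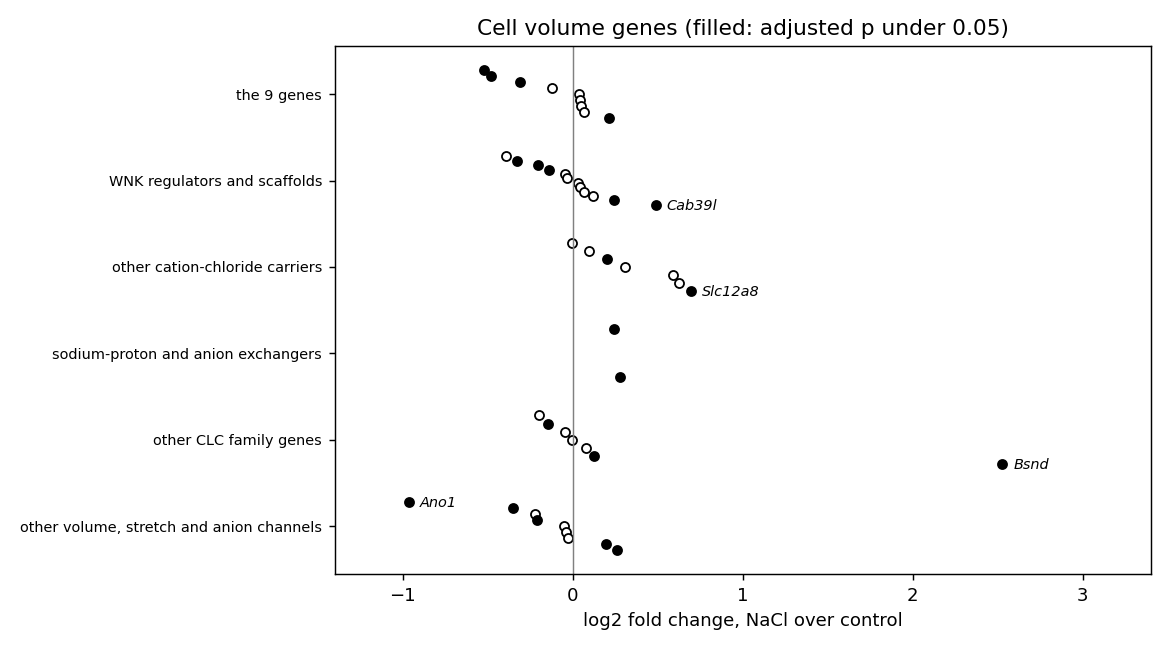
Log2 fold change of NaCl over control (horizontal axis) for the 9 genes and the genes of the list that are reported, by group (vertical axis). Filled points had an adjusted p-value under 0.05, and Bsnd (2.53) lies far to the right of the others shown.

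Among WNK regulators and scaffolds, 2 of 12 genes rose and 3 fell (41.7% called, beside 34.1% of all genes). Cab39l, which encodes a scaffold of the MO25 family that activates SPAK and OSR1, had 58.0, 58.2, 60.6 and 58.9 CPM in control and 94.4, 80.1, 76.1 and 79.9 CPM in NaCl libraries. Its mean rose from 58.9 ± 1.17 CPM in control to 82.6 ± 8.03 CPM with NaCl (SD, n = 4 per group), which is 0.49 ± 0.056 (SE) on the log2 scale, with an edgeR adjusted p-value of 6.257e-06. Its exons overlap those of Cdadc1 on the other strand over 3.82%. The related gene Cab39 had a log2 fold change of 0.03 (adjusted p = 0.50). Tsc22d2 rose, while Wnk4, Nrbp1 and Nrbp2 fell, all by less than 0.4 on the log2 scale. Exons of Wnk4 overlap those of Gm11615 on the other strand over 7.38%.

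Of the other 8 cation-chloride carrier genes, 2 rose (25.0% called, beside 34.1% of all genes). Slc12a4 encodes the potassium-chloride carrier KCC1, an exit path for ions during volume decrease. It rose from 89.9 ± 3.27 CPM in control to 103 ± 1.17 CPM with NaCl (SD, n = 4 per group). The log2 fold change was 0.20 (SE 0.037, edgeR adjusted p = 4.618e-04). Exons of Slc12a4 overlap those of Gm16156 on the other strand over 8.44%. Slc12a8 rose from 1.35 ± 0.397 CPM in control to 2.19 ± 0.157 CPM with NaCl (log2 fold change 0.70, adjusted p = 0.0242). That call was lost without control replicate 3 (0.52, adjusted p = 0.0632), without NaCl replicate 6 (0.69, adjusted p = 0.0508) and with the linear drift in the fit (1.002, adjusted p = 0.119). The potassium-chloride carrier gene Slc12a7 (log2 fold change 0.10) was not called, with an adjusted p-value of 0.0776 (0.0358 with the library number centred within groups). Slc12a9 (-0.0037, adjusted p = 0.975) and Slc12a5 (0.31, 0.487) were also not called. Slc12a1 and Slc12a3, the carriers of the thick limb and the distal tubule, were at 1.25 ± 0.547 and 1.20 ± 0.356 CPM in control and 1.95 ± 0.498 and 1.80 ± 0.402 CPM with NaCl (SD, n = 4 each), with adjusted p-values of 0.114 and 0.0844. Slc12a1 was called with the linear drift in the fit (0.00158) and with the library number centred within groups (0.0196), and Slc12a3 without control replicate 3 (0.0384) or NaCl replicate 5 (0.0414).

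Of 3 exchanger genes of volume increase tested, 2 rose (66.7% called, beside 34.1% of all genes). These were the 2 anion exchanger genes tested. Slc4a2 rose by 0.24 and Slc4a3 by 0.28 on the log2 scale (adjusted p = 3.178e-05 and 0.00314). Exons of Slc4a2 overlap those of Fastk on the other strand over 13.7%.

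Of 8 CLC family genes tested, 3 rose and 1 fell. Bsnd, which encodes barttin, had 0.587, 0.308, 0.652 and 0.615 CPM in control and 2.96, 3.57, 3.08 and 2.93 CPM in NaCl libraries. It rose 5.77-fold (log2 fold change 2.53, SE 0.23, adjusted p = 3.426e-07). It stayed low, with at most 151 counts in a library, and the groups did not overlap. Clcn4 rose and Clcn5 fell, by 0.12 and 0.15 on the log2 scale. Exons of Clcn4 overlap those of Gm45631 on the other strand over 11.5%.

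Of 9 other volume, stretch and anion channel genes tested, 2 rose and 3 fell, Lrrc8e included (55.6% called, beside 34.1% of all genes). Ano1, which encodes a calcium-activated chloride channel, had 5.20, 4.22, 5.58 and 5.60 CPM in control and 2.20, 2.03, 3.17 and 3.12 CPM in NaCl libraries. Its mean fell from 5.15 ± 0.648 CPM in control to 2.63 ± 0.598 CPM with NaCl (SD, n = 4 per group), which is -0.96 ± 0.16 (SE) on the log2 scale, with an edgeR adjusted p-value of 2.423e-04. Trpv4, a cation channel gene linked to osmotic sensing, rose by 0.20 (adjusted p = 0.00225) and Ttyh3 by 0.26 on the log2 scale (adjusted p = 7.834e-05). Clns1a fell by 0.21 on the log2 scale (adjusted p = 0.00127).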

How the data were processed

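Raw counts per Ensembl gene for 8 libraries were deposited by the authors. Trim Galore 0.6.7, STAR, DESeq2 1.34.0 and the build mm10 are named in the submitters' processing notes. The counting program, its strand setting and the annotation are not given in the sources used here. The 8 columns of a deposited normalized table were not used.

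Counts were fitted in R 4.3.3 with edgeR 4.0.16 (filterByExpr by group, minimum count 10, which kept 14024 genes, TMM, robust quasi-likelihood F test, group as the single term, Benjamini-Hochberg over all genes). Calls used an adjusted p-value under 0.05. Intervals are 95% from the fit. The test was also run on simulated counts with a constant dispersion and far fewer changed genes than were called here. Those counts held no trend over the library number, so that run does not cover such a trend. Over the 12 pairs of replicates, chi-square per degree of freedom was 5.24 to 22.97, so no pair agreed within sampling noise. Positions and lengths came from GENCODE M21 (GRCm38, which holds 15282 of the 15288 identifiers) and shared sequence from blastn 2.17.0. Promoter windows came from RefSeq.

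The genes and lists were chosen with earlier results of these data known. All 9 genes were named. From the list of other genes, called genes with an absolute log2 fold change of at least 0.4, Lrrc8e and the tested SLC12 genes were named by rule. For likeness, the called gene with the largest change and Lrrc8a were used, with the 3 genes highest in r among those whose log2 CPM averaged 3 or more. The other called genes of the list and Cab39 were named after their values were seen. Some genes of these lists are counted but not reported here by name. Proteins were not compared.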

Additional observations from a re-analysis of the deposited data

Results flagged for a closer look

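Across 22 sets of 4 values (a gene or the total count in 1 group), 4 held a library far from the remaining 3, and chance gives about 1.1 such sets. Lrrc8c had 40.3 CPM in control replicate 1, where the other controls had 36.7 to 37.3 CPM. Lrrc8d had 65.8 CPM in control replicate 4, where the other controls had 57.5 to 57.9 CPM. Total counts were 47565623 in control replicate 1, the highest of its group, and 35286796 in NaCl replicate 5, the lowest of its group. Lrrc8c stayed called with each library left out in turn, with log2 fold changes from -0.54 to -0.49.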

How the results depend on the processing

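The counts of calls and the log2 fold changes of 25 named genes were recomputed under 18 alternatives. Levels per length and shares were recomputed with the longest transcript and without each library of the group. Values of likeness (r) and the other genes of the list named in the report were not recomputed. Of the 9 genes, 4 were called under each other scaling, each other filter, DESeq2 1.42.0 and limma-voom (limma 3.58.1), and 4 to 5 with a library left out. The number was 3 at a threshold of 0.01, 6 with the library number centred within groups, and 4 with a linear drift over libraries 1 to 8, of which 2 were shared with the 4 called without it. All genes called numbered 4789, 3145 at the threshold of 0.01, 6030 with the library number centred and 3382 with the linear drift, of which 2191 were shared with the 4789. Limma-voom also called 4789 genes, 2371 higher and 2418 lower, of which 4679 were shared with edgeR, so the equal totals are not the same genes. The list of other genes gave 14 to 23 calls. Of 450 refits of single named genes, 418 kept direction and side of the threshold and 16 reversed.

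Reversals under the linear drift were Stk39 (-0.048), Oxsr1 (-0.17), Lrrc8a (-0.12), Clcn3 (-0.43), Slc12a3 (-0.022), Slc12a9 (0.10), Mgat2 (-0.067) and Pnpla8 (-0.075), as log2 fold changes. With library totals alone Slc12a9 was at 0.0064. Leaving out a library gave ranges that crossed 0 for Lrrc8a (-0.0061 to 0.069), Clcn3 (-0.027 to 0.10), Slc12a9 (-0.042 to 0.051) and Mgat2 (-0.0029 to 0.050). Of these genes Stk39 alone was called in the fit of all 8 libraries by group, and the cause was not tested. No paired analysis was made, because the labels do not say whether libraries of the groups belong together. Genes near 1 CPM, such as Bsnd and Slc12a8, rest on few counts.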
